A study of Homo sapiens with 59 samples.

Results

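The genes that carry glucose from the cell surface to lactate or to the mitochondrial pyruvate dehydrogenase were followed in Jurkat, a human leukaemia line of T cell origin, grown for 3 days with a single essential amino acid held at 25%. There were 33 genes, of 34622 genes listed in at least 1 of the 7 tables. The 33 were chosen by name for their textbook role, with earlier results of these data known. They comprise 4 glucose and lactate transporters, 7 enzymes of the hexose phosphate steps, 3 enzymes that make or remove fructose bisphosphate signals (the PFKFB family), 9 enzymes from aldolase to pyruvate kinase, 2 lactate dehydrogenase subunits and 8 genes of mitochondrial pyruvate entry and oxidation. All 33 were listed in every table and all passed the filter on low values, a mean of at least 10 normalised counts.

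RNA was sequenced in bulk from 59 libraries. The restricted groups received 25% histidine, 25% tryptophan, 25% methionine or 25% phenylalanine, or, of the branched-chain amino acids, 25% valine, 25% leucine or 25% isoleucine, and each had 5 libraries. Each was set against the control libraries of its own table: 5 for tryptophan, 5 for histidine, 5 for methionine and 5 for phenylalanine, plus 4 controls shared by the branched-chain tables. All groups were unmodified Jurkat cells, as far as the labels say. The labels used here give no composition for the control media, and do not state whether replicate libraries are separate cultures. A p-value here therefore reflects variation among libraries that could be technical.

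Glycolysis splits glucose in the cytosol into pyruvate, with a small net yield of ATP, and supplies carbon for nucleotides, serine and lipids on the way. Pyruvate is then either reduced to lactate and exported or carried into mitochondria and oxidised by pyruvate dehydrogenase, a complex that the PDK kinases switch off and the PDP phosphatases switch on. Activated T cells and T cell leukaemias take up glucose heavily and export much of it as lactate, and many genes of the pathway are known targets of the transcription factors HIF-1 and MYC.

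Deposited values are normalised counts, and their totals per library and table, in units of 1000000, ran between 14.9 and 20.5. The number of reads behind them could not be recovered, so the depth of each library is unknown. All 10 T-lineage markers examined were listed in every table, with medians of 11387 to 17132 normalised counts for CD3E but only 21.8 to 122 for CD28. The B cell marker MS4A1 and the myeloid marker CSF1R were listed in none. Another B cell marker, CD79A, was listed in every table, with medians of 319 to 547, above those of CD28. The myeloid marker CD14 was also in every table, with medians of at most 6.17. There were 5 libraries that stood apart, of which 3 were high in ribosomal protein mRNA (phenylalanine restricted 2, phenylalanine control 1 and branched-chain control 1). Fibroblast and epithelial mRNA was highest in histidine control 3, with 4358 normalised counts of COL1A1 and 291 of CDH1 (table medians 272 and 0), and in phenylalanine control 1, with 1396 of COL1A1 and 199.6 of EPCAM (308 and 0). Valine restricted 5 and branched-chain control 4 held less of it, with 207 and 141 of COL1A2 in the valine table (median 0). Its part in the results was not tested. Methionine control 1 had the lowest median correlation with its group in the methionine table (0.935). Histidine control 3 (0.915) and phenylalanine control 1 (0.874) were lower still in theirs. Results are given with and without the 5 libraries below.

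Between 16 and 27 of the 33 genes fell in each of 5 restrictions, and at most 2 in leucine or isoleucine. A gene is called here when its adjusted p is under 0.05 in limma, fitted to log2(normalised count + 1) over all genes of the table with Benjamini-Hochberg adjustment. In methionine-restricted cells 27 genes fell and 3 rose, where 25.4% and 27.8% of all tested genes were called lower and higher. In histidine-restricted cells 24 fell and 0 rose, against backgrounds of 12.3% and 15.6%. In valine-restricted cells 21 fell and 0 rose, against 7.36% and 5.13%. In tryptophan-restricted cells 21 fell and 4 rose, against 27.7% and 23.6%. With every library of that table scaled to the same total, 13 fell and 6 rose, against 16.8% and 41.1%, and the calls lost were those of HK1, HK2, PGM1, ENO2, SLC2A1, SLC16A1, PFKFB3 and PDK1. In phenylalanine-restricted cells 16 fell and 0 rose, against 6.09% and 4.11%. Where limma called 0 genes higher, those higher at an unadjusted p under 0.05 were 0 in histidine (21.5% of all tested genes), 1 in phenylalanine (12.2%) and 1 in valine (13.4%).

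Leucine and isoleucine restriction moved few of the genes or none. In leucine-restricted cells 2 genes fell and 0 rose, against 4.33% and 3.41% of all tested genes, and at an unadjusted p under 0.05 there were 6 lower and 1 higher (12.8% and 12.5% of all tested genes). In isoleucine-restricted cells limma called 0 of the 33, against 0% of all tested genes in either direction, and 0 of the 33 reached an unadjusted p under 0.05, as 2.23% of all tested genes did downward and 3.02% upward. The smallest adjusted p among the 33 in isoleucine was 0.797. With RNA from whole cultures, less of an mRNA in each cell and fewer cells holding it cannot be told apart.

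**Figure D1:**
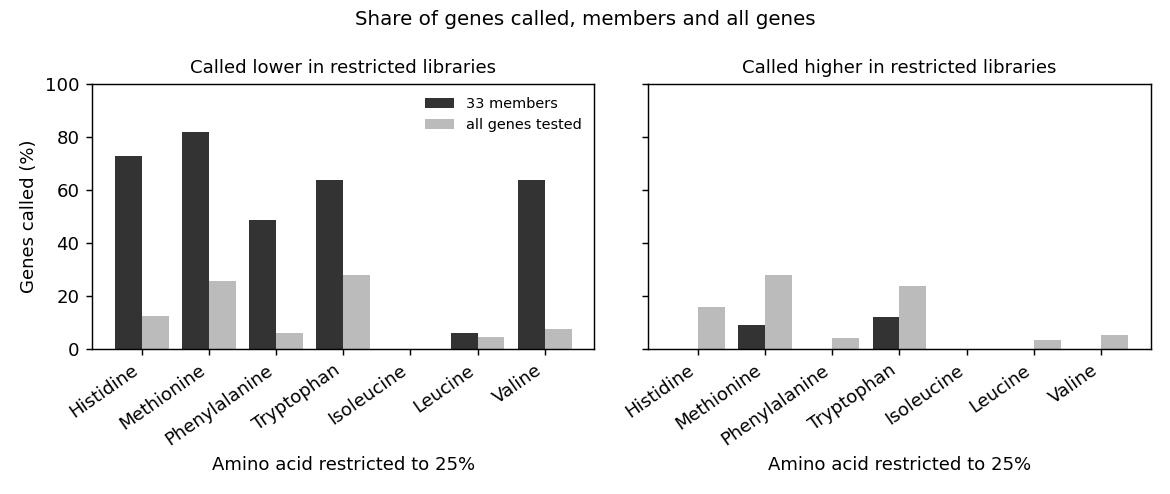
Percent of genes called lower (left panel) or higher (right panel) in each restriction, for the 33 glycolysis and pyruvate genes and for all genes tested in the same table. Of the 33 genes 81.8% were lower in methionine-restricted cells, 72.7% in histidine, 63.6% in tryptophan and in valine, 48.5% in phenylalanine, 6.06% in leucine and 0% in isoleucine.

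The size of the change followed another order than its count. A fold given for a gene is 2 raised to its fitted log2 fold change, so it can differ from the ratio of the arithmetic means printed beside it. The median log2 fold change of the 33 genes was -1.12 in methionine, -0.61 in valine, -0.47 in histidine, -0.41 in phenylalanine, -0.36 in tryptophan, -0.12 in leucine and -0.11 in isoleucine, while the median over all tested genes lay between -0.01 and 0.03. Genes called and at least 2-fold lower numbered 17 in methionine (10.4% of all tested genes), 9 in valine (2.56%), 6 in phenylalanine (1.69%), 3 in tryptophan (4.4%), 2 in histidine (3.61%) and 1 in leucine (1.13%). Every restricted library lay below every control library for 25 genes in methionine (19% of all tested genes), 21 in valine (9.13%), 17 in tryptophan (21.9%), 16 in histidine (8.2%), 14 in phenylalanine (6.1%), 4 in leucine (6.81%) and 0 in isoleucine (0.818%). Tryptophan had the highest of these backgrounds, and 17 of the 33 stand against it.

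**Figure D2:**
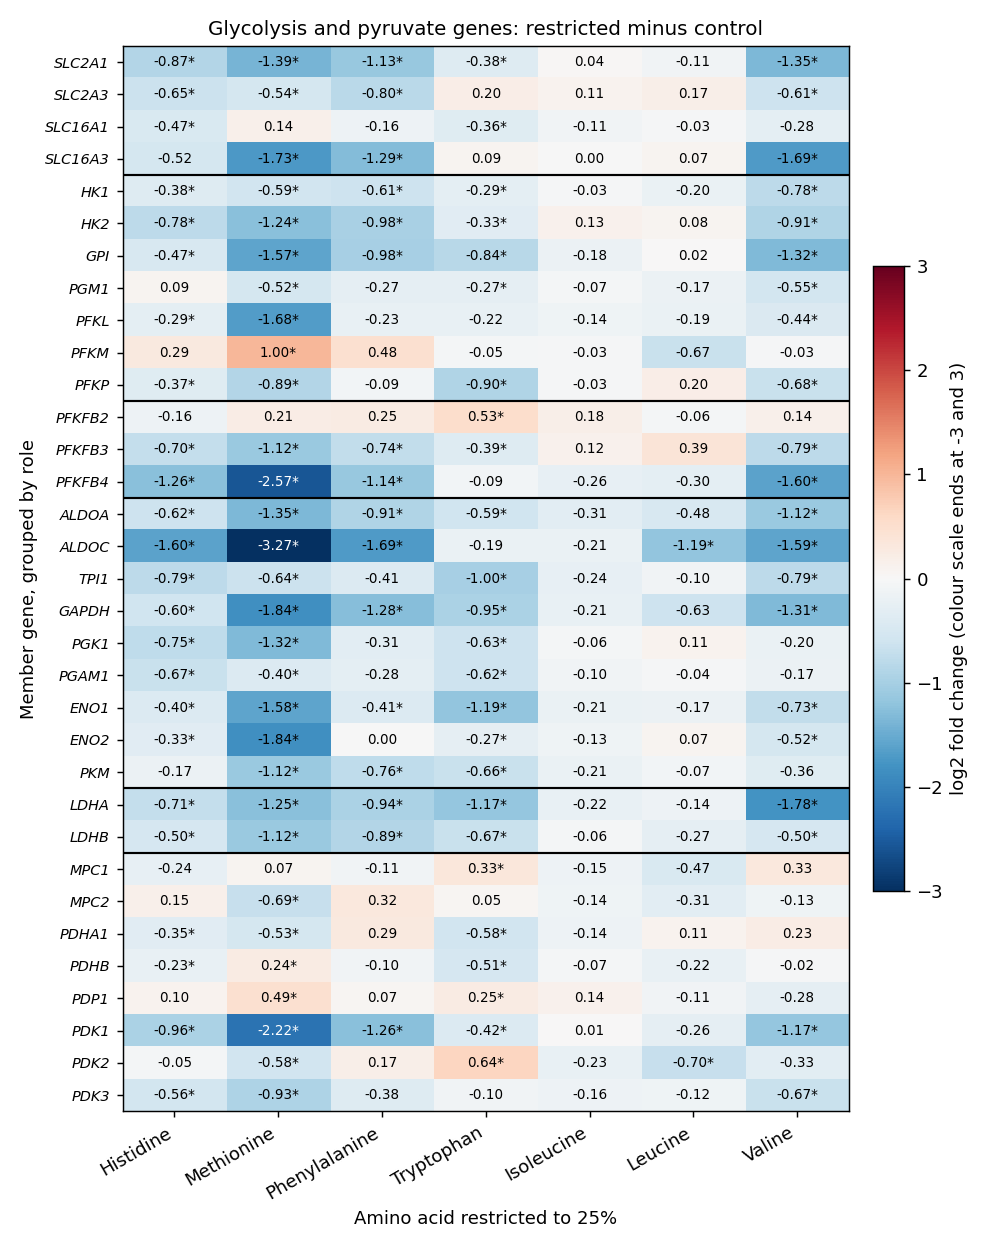
Log2 fold change (restricted over control, on log2(normalised count + 1)) of each of the 33 genes in each restriction, grouped by role, with an asterisk where limma's adjusted p was under 0.05. Negative values prevail in the methionine, histidine, phenylalanine, tryptophan and valine columns, with ALDOC at -3.27 and PFKM at 1.00 in the methionine column, and the isoleucine column holds no asterisk.

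A core of 12 genes fell in 5 restrictions, all except isoleucine and 1 other: HK1, HK2, GPI, ALDOA, ALDOC, GAPDH, ENO1, LDHA, LDHB, SLC2A1, PFKFB3 and PDK1. For 11 of them the other restriction was leucine, and for ALDOC it was tryptophan. With equal library totals 6 of the 12 kept all 5 calls: HK1, HK2, SLC2A1, PFKFB3 and PDK1 lost tryptophan and ENO1 lost phenylalanine. With no filter on low values ENO1 and LDHB did not keep all 5, and ENO1 did not with trimmed mean factors or the replicate block. A further 5 genes fell in 4 restrictions (PFKP, TPI1, ENO2, SLC2A3 and PFKFB4), and 8 fell in 3. How many of all tested genes fell in as many restrictions was not counted, so these counts stand without a background. The genes that ever rose were PFKM, PDHB and PDP1 in methionine, and PFKFB2, MPC1, PDP1 and PDK2 in tryptophan. Isoleucine, leucine and valine share their 4 control libraries, so their columns are set side by side and not counted as independent of each other.

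As a share of all normalised counts, the 33 genes together took a median of 0.793% in methionine-restricted libraries and 1.83% in their controls. The medians were 0.908% in valine-restricted and 1.43% in control libraries, 0.922% in phenylalanine-restricted and 1.42% in control libraries, 1.06% in histidine-restricted and 1.51% in control libraries, and 1.12% in tryptophan-restricted and 1.66% in control libraries. Restricted and control libraries did not overlap in any of these 5 tables. They overlapped in leucine (1.27% and 1.43%) and in isoleucine (1.36% and 1.435%).

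**Figure D3:**
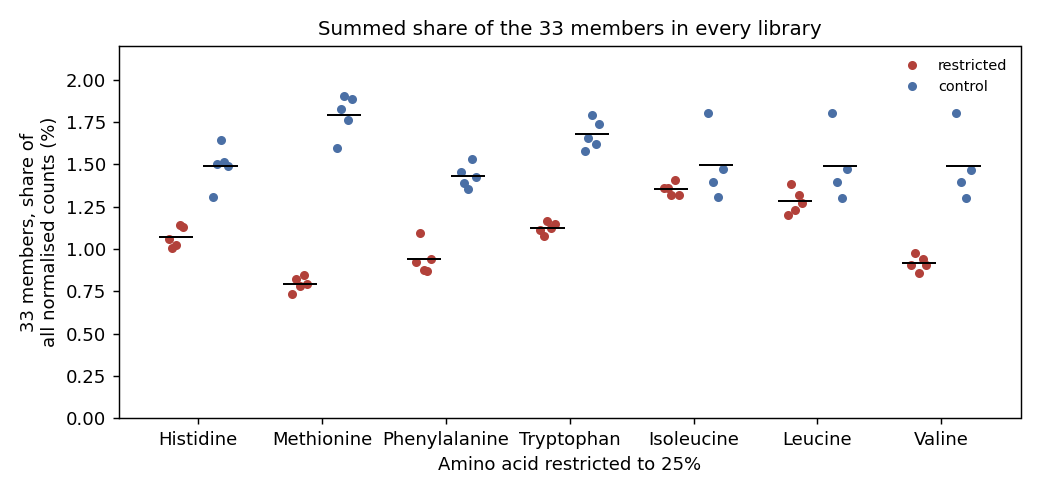
Summed share of all normalised counts (percent) taken by the 33 genes in each library, with restricted libraries left of their controls, and lines at the means. The restricted libraries sit below all controls in histidine, methionine, phenylalanine, tryptophan and valine, with the lowest median, 0.793%, in methionine-restricted cells.

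Glucose enters through SLC2A1 and SLC2A3, the facilitative transporters GLUT1 and GLUT3, and lactate crosses the membrane through SLC16A1 and SLC16A3, the monocarboxylate transporters MCT1 and MCT4. Of these 4 genes, 3 fell in histidine, methionine, phenylalanine and valine and 2 in tryptophan, and none was called in leucine or isoleucine. Among all tested genes 12.3% fell in histidine, 25.4% in methionine, 6.09% in phenylalanine, 7.36% in valine and 27.7% in tryptophan. SLC2A1 had 276, 429, 435, 426 and 376 normalised counts in valine-restricted libraries, against 1458, 1104, 568 and 989.6 in branched-chain controls. Its groups did not overlap, although control 4 came near the restricted libraries, and the log2 fold change was -1.35 (adjusted p = 0.0035, limma). SLC2A1 changed by -1.39 in methionine, -1.13 in phenylalanine, -0.87 in histidine and -0.38 in tryptophan, each called by limma, although the tryptophan call was lost with equal library totals (adjusted p = 0.344). SLC2A3 fell by 0.80 in phenylalanine, 0.65 in histidine, 0.61 in valine and 0.54 in methionine on the log2 scale. In tryptophan it averaged 541 ± 28.3 normalised counts in restricted and 474 ± 67.5 in control libraries (SD, n = 5 each), and limma did not call it (adjusted p = 0.102), but did without tryptophan control 4 (adjusted p = 0.0495). The valine call of SLC2A3 was lost without valine restricted 1, branched-chain control 3 or branched-chain control 5, with adjusted p-values of 0.0516, 0.0505 and 0.0683.

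SLC16A3, the exporter typical of cells with high lactate output, fell in methionine, phenylalanine and valine. In valine-restricted libraries it had 117, 117, 102, 174 and 151 normalised counts, against 573, 424, 387 and 336 in branched-chain controls. All restricted libraries were lower, by 3.24-fold (log2 fold change -1.69, SE 0.21, adjusted p = 0.000267, limma). In phenylalanine-restricted libraries it had 310.4, 362, 227, 125 and 299, against 577, 511, 662, 914 and 480.2 in controls. Here too no library overlapped, at a 2.45-fold lower level (log2 fold change -1.29, SE 0.27, adjusted p = 0.0101, limma). In methionine its log2 fold change was -1.73 (adjusted p = 2.46e-05). In histidine it was -0.52 and in tryptophan 0.09, and limma called neither, although the histidine value passed without histidine control 1 (adjusted p = 0.0329). SLC16A1 behaved otherwise: it fell by 0.47 in histidine and 0.36 in tryptophan (adjusted p = 0.331 there with equal library totals, limma) and was not called elsewhere, and the response of SLC16A3 in methionine differed from that in tryptophan by -1.82 (SE 0.39, adjusted p = 0.000188, limma interaction contrast).

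Hexokinases HK1 and HK2 trap glucose as glucose 6-phosphate, GPI turns that into fructose 6-phosphate, PGM1 links it to glycogen, and PFKL, PFKM and PFKP are the liver, muscle and platelet subunits of phosphofructokinase, the committed step of glycolysis. Of these 7 genes, 6 fell in methionine and in valine, 5 in histidine and in tryptophan, and 3 in phenylalanine, and 1 rose, in methionine. The shares of all tested genes that fell were 25.4% in methionine, 7.36% in valine, 12.3% in histidine, 27.7% in tryptophan and 6.09% in phenylalanine. In methionine 27.8% of all tested genes rose. HK2, the inducible hexokinase, had 1049.8, 1315, 1261, 1299 and 1319 normalised counts in methionine-restricted libraries, against 2576, 3033, 2853, 3227 and 3105 in controls. The groups were far apart (log2 fold change -1.24, adjusted p = 3.37e-08, limma), and HK2 also fell by 0.98 in phenylalanine, 0.91 in valine, 0.78 in histidine and 0.33 in tryptophan, the last with an adjusted p of 0.327 under equal library totals. HK1 fell less, between 0.29 in tryptophan (adjusted p = 0.504 with equal library totals, limma) and 0.78 in valine, and its response did not differ detectably among histidine, methionine, phenylalanine and tryptophan (adjusted p = 0.0705, limma interaction F test). GPI fell by 1.57 in methionine, 1.32 in valine, 0.98 in phenylalanine, 0.84 in tryptophan and 0.47 in histidine.

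The phosphofructokinase subunits parted from each other. PFKL had 985, 1125, 939, 1111 and 900.4 normalised counts in methionine-restricted libraries, against 3138, 3196, 3083, 3429 and 3345 in controls. Each restricted library held well under any control value, with a log2 fold change of -1.68 (adjusted p = 9.21e-10, limma). PFKM, the least abundant of the 3 by normalised counts, had 95.5, 85.3, 129, 111 and 69.2 in methionine-restricted libraries, against 47.2, 58, 48.4, 21.9 and 81.8 in controls. Its groups overlapped, since control 5 exceeded restricted 5, and the log2 fold change was 1.00 (SE 0.30, adjusted p = 0.013, limma). PFKP fell by 0.90 in tryptophan, 0.89 in methionine, 0.68 in valine and 0.37 in histidine. The phosphofructokinase mix therefore moved in opposite ways: PFKP relative to PFKL within a library rose by 0.79 in methionine and 0.39 in leucine and fell by 0.68 in tryptophan and by 0.24 in valine on the log2 scale.

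PFKFB2, PFKFB3 and PFKFB4 make and remove fructose 2,6-bisphosphate, the strongest activator of phosphofructokinase. PFKFB3 and PFKFB4, the forms known to be induced by hypoxia, fell together in histidine, methionine, phenylalanine and valine. PFKFB4 had 126.3, 129, 118, 159.6 and 115 normalised counts in methionine-restricted libraries, against 783, 728, 797, 670.2 and 886 in controls. That is 129.6 ± 17.7 and 773 ± 80.8 (SD, n = 5 each), 5.94-fold lower (log2 fold change -2.57, SE 0.12, adjusted p = 9.53e-10, limma). In histidine-restricted libraries it had 172, 226, 215, 268 and 271, against 367, 561, 786, 568 and 534 in controls, or 230.3 ± 40.8 and 563 ± 149 (SD, n = 5 each). Both groups stayed apart at 2.4-fold (log2 fold change -1.26, SE 0.18, adjusted p = 0.000166, limma). PFKFB4 fell by 1.60 in valine and 1.14 in phenylalanine. In tryptophan it averaged 263 ± 46.3 in restricted and 290.3 ± 93.4 in control libraries, and limma did not call it (adjusted p = 0.75).

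PFKFB2, a form regulated in heart by phosphorylation, rose in tryptophan. It had 725, 649, 702, 674 and 756 normalised counts in tryptophan-restricted libraries, against 488, 478, 394, 564 and 515 in controls. All restricted libraries were higher (701 ± 42.1 and 488 ± 61.9, SD, n = 5 each, log2 fold change 0.53, SE 0.09, adjusted p = 0.000266, limma). PFKFB3 fell by 0.39 in the same cells, a call that was lost with equal library totals (log2 fold change -0.15, adjusted p = 0.191, limma).

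From aldolase to pyruvate kinase, all 9 genes fell in methionine, 8 in histidine, 8 in tryptophan, 6 in valine, 5 in phenylalanine and 1 in leucine. This block holds the cleavage of fructose bisphosphate (ALDOA and ALDOC), the interconversion of triose phosphates (TPI1), the oxidation step that reduces NAD (GAPDH), both ATP-yielding kinases (PGK1 and PKM), the mutase PGAM1 and the enolases ENO1 and ENO2. Beside these counts, 25.4% of all tested genes fell in methionine, 12.3% in histidine and 27.7% in tryptophan. It was 7.36% in valine, 6.09% in phenylalanine and 4.33% in leucine. ALDOC, the aldolase best known from brain, had the largest fall of the 33 genes in methionine, histidine, phenylalanine and leucine.

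The promoters of 4 genes are shown because their mRNAs moved unequally. ALDOC and PFKFB4 fell most in methionine, and ENO1 and GAPDH are abundant housekeeping genes that fell in tryptophan, where ALDOC and PFKFB4 were not called. Each is 250 bases before and 50 bases after the annotated start, from RefSeq on GRCh38.p14, written 5′ to 3′ on the gene's strand, with every ACGTG on either strand (read as CACGT on the opposite strand) in capitals. ALDOC is at chr17:28576846-28577145 on the minus strand, PFKFB4 at chr3:48556754-48557053 on the minus strand, ENO1 at chr1:8878637-8878936 on the minus strand and GAPDH at chr12:6535014-6535313 on the plus strand.
ALDOC: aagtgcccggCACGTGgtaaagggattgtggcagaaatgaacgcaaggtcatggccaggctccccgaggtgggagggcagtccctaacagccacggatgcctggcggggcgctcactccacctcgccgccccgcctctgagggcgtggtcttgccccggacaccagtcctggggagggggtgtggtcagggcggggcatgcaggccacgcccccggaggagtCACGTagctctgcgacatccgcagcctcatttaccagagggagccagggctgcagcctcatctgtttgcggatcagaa
PFKFB4: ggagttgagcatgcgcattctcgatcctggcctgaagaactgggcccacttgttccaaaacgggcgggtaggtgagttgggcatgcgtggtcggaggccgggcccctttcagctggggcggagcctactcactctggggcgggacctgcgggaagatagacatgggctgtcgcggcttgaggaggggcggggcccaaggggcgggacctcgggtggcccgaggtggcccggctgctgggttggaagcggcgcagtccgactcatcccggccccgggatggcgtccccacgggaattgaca
ENO1: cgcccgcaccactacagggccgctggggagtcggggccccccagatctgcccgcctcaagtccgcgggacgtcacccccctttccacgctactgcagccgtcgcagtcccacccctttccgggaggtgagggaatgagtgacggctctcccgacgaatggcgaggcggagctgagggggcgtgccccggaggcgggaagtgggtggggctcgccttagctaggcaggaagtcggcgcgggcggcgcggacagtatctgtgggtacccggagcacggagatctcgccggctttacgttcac
GAPDH: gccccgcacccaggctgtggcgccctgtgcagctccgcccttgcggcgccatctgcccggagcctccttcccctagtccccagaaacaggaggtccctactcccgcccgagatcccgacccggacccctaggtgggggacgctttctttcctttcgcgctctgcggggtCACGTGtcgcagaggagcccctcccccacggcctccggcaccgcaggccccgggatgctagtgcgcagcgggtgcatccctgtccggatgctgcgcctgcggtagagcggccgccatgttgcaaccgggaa

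ACGTG is the core of the hypoxia response element, and CACGTG, the E-box bound by MYC and by the glucose sensor MLXIP, contains it on both strands and counts here as 2 matches. ALDOC had 3 matches, GAPDH 2, and ENO1 and PFKFB4 0 within these windows. Each window lies inside its gene as annotated in GENCODE 29, so the first bases of the annotated gene are not in it. On the plus strand GAPDH begins there at 6533927. On the minus strand ALDOC begins at 28577264, PFKFB4 at 48562015 and ENO1 at 8879250. Of 61 promoters listed for 29 of the 33 genes, 22 (36.1%) held ACGTG and 8 (13.1%) held CACGTG, against 21.4% and 7.26% of 35116 promoters in all. Windows of the same gene can overlap, as those of PFKM do, so they are not separate units. Counted by gene, 18 of the 29 held ACGTG in some window and 8 held CACGTG, against 24.9% and 8.77% of 27305 genes. A gene with more windows has more chances of a match. A match is a description of the letters, and its absence says only that these letters are not in the window.

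The response of ALDOC varied widely in size among the restrictions. In methionine-restricted libraries it had 281, 378, 352, 390.0 and 311 normalised counts, against 2983, 3333, 3536, 3017 and 3556 in controls. That is 342 ± 45.9 and 3285 ± 275 (SD, n = 5 each), 9.61-fold lower (log2 fold change -3.27, SE 0.10, adjusted p = 1.33e-11, limma), with a wide gap between the groups. In histidine-restricted libraries it had 619, 686, 765, 1078 and 1079.5, against 1618, 2788, 3337, 2400.3 and 2724 in controls. All restricted libraries were lower, at 846 ± 219 and 2574 ± 631 (SD, n = 5 each), or 3.04-fold (log2 fold change -1.60, SE 0.19, adjusted p = 3.92e-05, limma). In phenylalanine-restricted libraries it had 293, 424, 271, 294 and 284, against 1241, 889, 890.2, 1053 and 977 in controls, or 313 ± 62.3 and 1009.9 ± 146 (SD, n = 5 each). Restricted library 2 was the highest of its group and still below every control, and the level was 3.24-fold lower (log2 fold change -1.69, SE 0.14, adjusted p = 2.37e-05, limma).

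In the branched-chain tables ALDOC fell with leucine and valine. Leucine-restricted libraries had 399, 653, 519.8, 546 and 558 normalised counts, against 1579, 1073, 1036 and 1193 in controls. It was lower in 5 of 5 restricted libraries, by 2.27-fold (535 ± 91.2, n = 5, and 1221 ± 249, n = 4, SD), with a log2 fold change of -1.19 (SE 0.16, adjusted p = 0.00112, limma). Valine-restricted libraries had 371, 499, 417, 440.3 and 412, against 1705, 1133, 1102 and 1271 in the same control libraries as scaled in the valine table, for a log2 fold change of -1.59 (SE 0.15, adjusted p = 4.72e-05, limma). In isoleucine the log2 fold change was -0.21 and was not called.

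In tryptophan ALDOC was not called. It had 504, 419, 566, 526 and 556 normalised counts in tryptophan-restricted libraries, against 440.3, 593, 698, 559 and 661 in controls. The groups overlapped, and limma did not call the difference (log2 fold change -0.19, adjusted p = 0.215), but did without tryptophan control 1 (adjusted p = 0.0318). The response of ALDOC in methionine differed from that in tryptophan by -3.08 (SE 0.22, adjusted p = 3.22e-14, limma interaction contrast), whereas histidine and phenylalanine differed by 0.09 (adjusted p = 0.84).

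Of the enolases, ENO1 fell in tryptophan by more than 2-fold. This general form had 29635, 28694, 31455, 31741 and 30917 normalised counts in tryptophan-restricted libraries, against 63679.6, 69931, 77083, 66006 and 72272 in controls. The means were 30489 ± 1288 and 69794 ± 5268 (SD, n = 5 each), a 2.29-fold lower level that no library bridged (log2 fold change -1.19, SE 0.06, adjusted p = 1.45e-09, limma). ENO1 fell by 1.58 in methionine, 0.73 in valine, 0.41 in phenylalanine and 0.40 in histidine, and the phenylalanine call (adjusted p = 0.0381, limma) was lost without any single library except restricted 2 and control 1 (adjusted p-values of 0.0509 to 0.106). ENO2, the form best known from neurons, fell by 1.84 in methionine, with 1959, 1998, 2134, 2054 and 2078 in restricted libraries, against 6688, 7374, 7744, 7094 and 7774 in controls. The restricted libraries lay tightly together, 3.58-fold below the controls (2045 ± 68.3 and 7335 ± 458, SD, n = 5 each, SE of the log2 value 0.06, adjusted p = 3.13e-11, limma). In phenylalanine ENO2 averaged 3038 ± 226 in restricted and 3046 ± 270.2 in control libraries (adjusted p = 0.993, limma), and the methionine and phenylalanine responses differed by -1.84 (SE 0.10, adjusted p = 2.15e-16, limma interaction contrast).

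GAPDH, often used as a reference transcript, fell in 5 restrictions. It had 19461, 21208, 19433, 22989 and 18948 normalised counts in methionine-restricted libraries, against 59829, 80387, 76629, 69139 and 81626 in controls. No library overlapped, and the log2 fold change was -1.84 (adjusted p = 2.61e-09, limma). GAPDH also fell by 1.31 in valine, 1.28 in phenylalanine, 0.95 in tryptophan and 0.60 in histidine. In leucine-restricted libraries it had 40888, 47943, 40201, 46097 and 45691, against 107221, 58349, 53409 and 65135 in controls, so every restricted library was lower and control 1 stood far above the rest. Limma's adjusted p was 0.0504 (log2 fold change -0.63, SE 0.18) and became 0.0125 without branched-chain control 1, with a log2 fold change of -0.42, and 0.0308 without branched-chain control 4.

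TPI1 fell by 1.00 in tryptophan, at 5303 ± 383 in restricted and 10600 ± 291 in control libraries (SD, n = 5 each, SE of the log2 value 0.06, adjusted p = 4.19e-09, limma). It fell by 0.79 in histidine, 0.79 in valine and 0.64 in methionine, and its -0.41 in phenylalanine was not called, but passed without phenylalanine restricted 2 (adjusted p = 0.0133, limma). PGK1 fell by 1.32 in methionine, 0.75 in histidine and 0.63 in tryptophan. In phenylalanine-restricted libraries PGK1 had 7912, 9901, 7280.0, 7367 and 7745 normalised counts, against 11878, 9619, 8464, 9630.5 and 10110.1 in controls. Restricted 2 alone, which is high in mRNA of ribosomal proteins, reached into the control range, and the adjusted p of 0.118 became 0.0217 without it (limma). PKM, the last step, fell by 1.12 in methionine, 0.76 in phenylalanine and 0.66 in tryptophan, and its -0.17 in histidine and -0.36 in valine were not called. The histidine value of PKM passed without histidine control 1 (adjusted p = 0.0306, limma).

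Lactate dehydrogenase turns pyruvate into lactate and back, with LDHA encoding the muscle-type and LDHB the heart-type subunit. Both genes fell in histidine, methionine, phenylalanine, tryptophan and valine. LDHA had 3773, 3862, 3881, 4356 and 3564 normalised counts in valine-restricted libraries, against 19053, 10621, 12129 and 12980.0 in controls. The lowest control still held well over the highest restricted library, and the fitted level was 3.44-fold lower (3887 ± 291, n = 5, and 13696 ± 3703, n = 4, SD, log2 fold change -1.78, SE 0.16, adjusted p = 2.02e-05, limma). This was the largest fall of any member in valine. In tryptophan-restricted libraries LDHA had 8252, 9622, 10541, 10002 and 9981, against 22049, 21107, 21935, 21853 and 21691 in controls. The controls were almost level, and LDHA was 2.25-fold lower (9679.7 ± 863 and 21727 ± 370.3, SD, n = 5 each, log2 fold change -1.17, SE 0.06, adjusted p = 2.32e-09, limma). LDHA fell by 1.25 in methionine, 0.94 in phenylalanine and 0.71 in histidine, and its response did not differ detectably between methionine and tryptophan (difference -0.08, adjusted p = 0.697, limma interaction contrast). LDHB fell by 1.12 in methionine, 0.89 in phenylalanine, 0.67 in tryptophan, 0.50 in histidine and 0.50 in valine. The valine call of LDHB (adjusted p = 0.0414, limma) was lost without valine restricted 1, 3, 4 or 5 or branched-chain control 4 or 5, taken out singly (adjusted p-values of 0.0603 to 0.104).

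**Figure D4:**
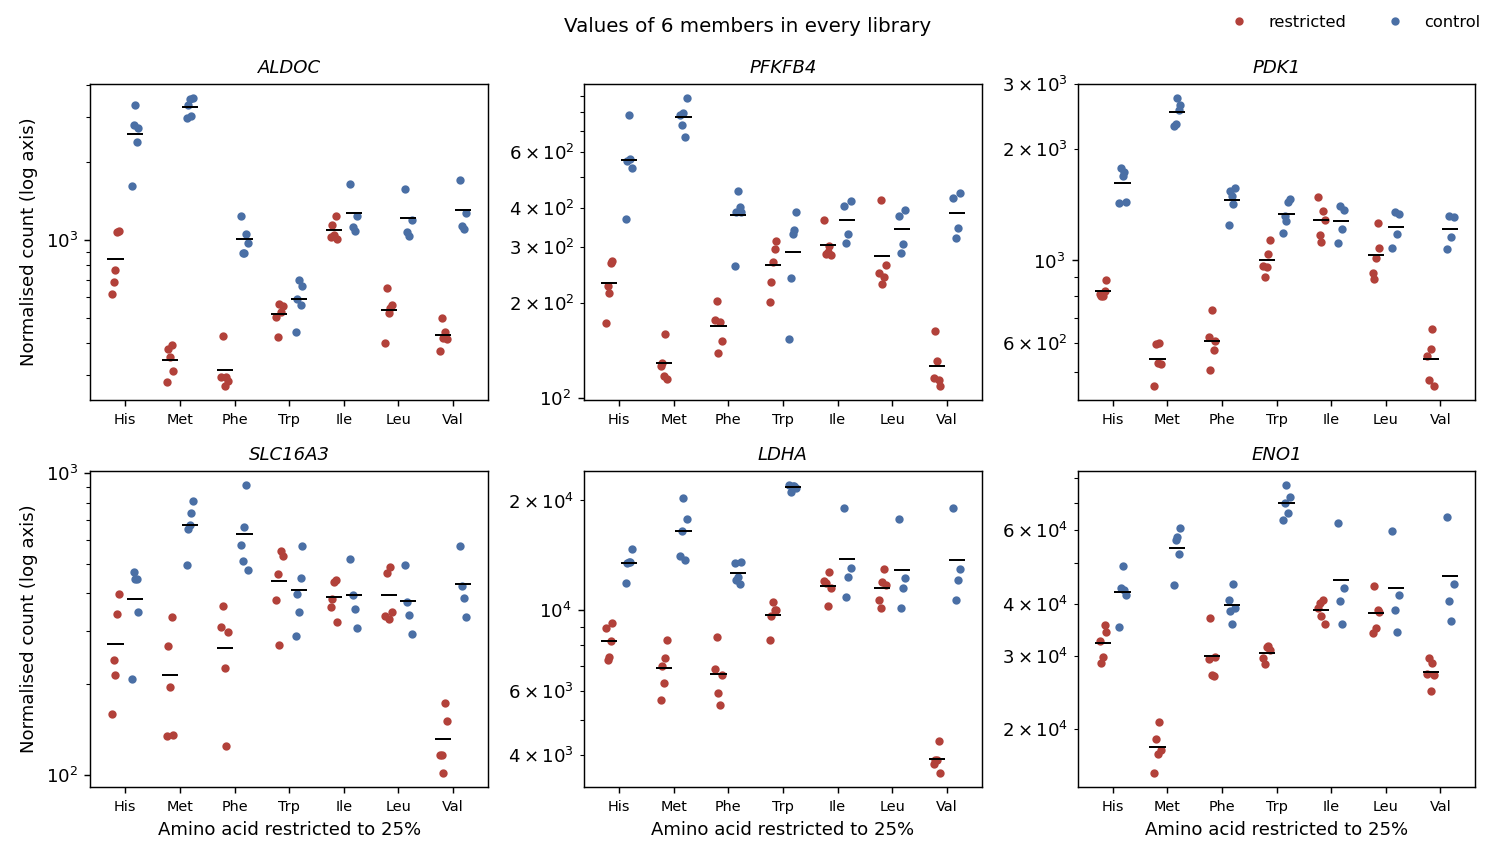
Normalised counts (log axis) of ALDOC, PFKFB4, PDK1, SLC16A3, LDHA and ENO1 in every library, restricted left of control in each table, with lines at the group means. The branched-chain controls recur in the isoleucine, leucine and valine columns. ALDOC spans 281 to 3556 in the methionine column, while in the tryptophan column its groups overlap and those of LDHA and ENO1 do not.

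Pyruvate enters mitochondria through the carrier made of MPC1 and MPC2 and is oxidised by pyruvate dehydrogenase, whose E1 enzyme is built from PDHA1 and PDHB. Of the 8 genes of this group, 5 fell and 2 rose in methionine, 4 fell in histidine, 3 fell and 3 rose in tryptophan, 2 fell in valine, and 1 each fell in phenylalanine and leucine. Shares of all tested genes were 25.4% lower and 27.8% higher in methionine, 27.7% and 23.6% in tryptophan, and 12.3% lower in histidine. They were 7.36% lower in valine, 6.09% in phenylalanine and 4.33% in leucine. The tryptophan counts and the 2 higher in methionine lie near these shares. The kinase PDK1, which phosphorylates and inactivates the complex and is a known HIF-1 target, fell in 5 restrictions. It had 459.7, 594, 530.4, 597 and 524 normalised counts in methionine-restricted libraries, against 2313, 2329.7, 2744, 2554 and 2632 in controls. That is 541 ± 56.9 and 2514 ± 189 (SD, n = 5 each), 4.65-fold lower with no overlap (adjusted p = 2.07e-10, limma). In histidine-restricted libraries it had 813, 802, 803, 827 and 887, against 1429.6, 1773, 1692, 1733 and 1442 in controls (SE of the log2 value 0.08, adjusted p = 1.7e-06, limma). In valine-restricted libraries it had 551, 474, 576, 655 and 458, against 1075, 1319, 1155 and 1312 in controls (adjusted p = 0.000223, limma), again without overlap.

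The kinases PDK2 and PDK3 were called in fewer restrictions than PDK1, PDK2 in both directions and PDK3 as lower in 3. PDK2, a widely expressed form, had 527, 538, 475, 545 and 501 normalised counts in tryptophan-restricted libraries, against 247, 283, 376, 336 and 441 in controls. Every restricted library was higher (517 ± 28.8 and 337 ± 76.5, SD, n = 5 each, log2 fold change 0.64, SE 0.13, adjusted p = 0.001, limma). In leucine-restricted libraries PDK2 had 339.6, 403, 354, 343 and 396, against 783, 546, 548 and 535 in controls, with 5 of 5 restricted libraries lower. The fitted fall was 1.62-fold (367 ± 30.2, n = 5, and 603 ± 120.3, n = 4, SD, log2 fold change -0.70, SE 0.14, adjusted p = 0.0111, limma), and control 1 again stood above the other controls. PDK2 also fell by 0.58 in methionine. PDK3 fell by 0.93 in methionine, 0.67 in valine and 0.56 in histidine, and its valine call (adjusted p = 0.047, limma) was lost without any single library except valine restricted 2 and 4 (adjusted p-values of 0.0545 to 0.115).

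On the oxidising side, the phosphatase PDP1, which reactivates the complex, rose in methionine. It had 682, 587, 756, 549 and 754 normalised counts in methionine-restricted libraries, against 478, 448, 470.3, 423 and 542 in controls. Restricted libraries were all higher (666 ± 94.5 and 472 ± 44.6, SD, n = 5 each, log2 fold change 0.49, SE 0.11, adjusted p = 0.00175, limma). It rose by 0.25 in tryptophan (adjusted p = 0.0352, limma), a call lost without restricted 1, 3 or 4 or control 2, 4 or 5 of that table, taken out singly (adjusted p-values of 0.058 to 0.094). PDHB had 2030.1, 2027, 1794, 2045 and 2088 in methionine-restricted libraries, against 1613, 1786, 1730.4, 1573 and 1759 in controls. It too was higher in 5 of 5, though restricted 3 came close to the highest control (1997 ± 116 and 1692 ± 93.7, SD, n = 5 each, log2 fold change 0.24, SE 0.07, adjusted p = 0.00789, limma). In tryptophan the direction was the other way: PDHB averaged 1498 ± 69.0 in restricted and 2129 ± 127 in control libraries (SD, n = 5 each, log2 fold change -0.51, SE 0.06, adjusted p = 7.23e-06, limma), while its partner PDHA1 fell by 0.58. PDHA1 also fell by 0.53 in methionine and 0.35 in histidine. Its methionine call was lost without methionine restricted 1 (adjusted p = 0.0515, limma), and its histidine call without any single library except restricted 1, control 1 and control 5 (adjusted p-values of 0.0774 to 0.113). The carrier subunit MPC2 fell by 0.69 in methionine, and MPC1 rose by 0.33 in tryptophan, with 752, 730.4, 793, 804 and 883 in restricted libraries, against 674, 599, 562, 677 and 637 in controls (adjusted p = 0.00261, limma).

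Responses were compared directly among histidine, methionine, phenylalanine and tryptophan, whose control libraries are separate. For 30 of the 33 genes the response differed among the 4 (adjusted p under 0.05, limma interaction F test), where 64.9% of all genes tested did. The smallest adjusted p-values were those of ENO2 (3.41e-17), PDK1 (7.87e-14), ALDOC (4.87e-13), PFKL (1.08e-11) and ENO1 (2.54e-10). Methionine against histidine differed for 23 of the 33 (32.7% of all genes), with 20 more negative in methionine, and methionine against tryptophan for 23 (49.7%), with 20 more negative in methionine. Methionine against phenylalanine differed for 17 (37.5%), with 16 more negative in methionine. Phenylalanine against tryptophan differed for 17 (36.4%), with 9 more negative in phenylalanine and 8 in tryptophan, and histidine against tryptophan for 15 (37.2%), with 9 more negative in histidine and 6 in tryptophan. Histidine and phenylalanine differed for 8 (15.3%). These splits depended on scaling: with equal library totals 14 of 19 were more negative in phenylalanine than in tryptophan, and 14 of 16 in histidine than in tryptophan.

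Single genes show how these contrasts split. PFKL was 1.39 log2 units less negative in histidine than in methionine (SE 0.14, adjusted p = 1.03e-09, limma interaction contrast). PFKP was 0.80 less negative in phenylalanine than in tryptophan (SE 0.13, adjusted p = 6.19e-06), and it did not differ detectably between methionine and tryptophan (0.01, adjusted p = 0.972). ENO1 was 0.79 less negative in histidine than in tryptophan (SE 0.13, adjusted p = 1.05e-05). PGK1 was 0.45 more negative in histidine than in phenylalanine (difference -0.45, SE 0.12, adjusted p = 0.0109). Each is a difference of log2 fold changes taken within the tables, into which the scaling of restricted against control libraries enters. With equal library totals the median contrast of histidine against tryptophan over the 33 genes moved by -0.21, and the contrasts named became 1.30 for PFKL, 0.68 for PFKP, 0.59 for ENO1 and -0.52 for PGK1, all still with an adjusted p under 0.05 (limma).

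Ratios of paired genes within a library depend on library scaling only through the 1 added to each value, and equal totals moved no difference by more than 0.0023 (PFKM to PFKL). Of 105 such ratios (15 pairs in 7 restrictions), 53 differed at an adjusted p under 0.05 by an exact two-sided permutation test, in which no single test can go below p = 0.00794. Counts were 14 of 15 in methionine, 10 in tryptophan, 9 in valine, 8 in phenylalanine, 7 in histidine, 3 in leucine and 2 in isoleucine. A ratio shows unequal change of its genes and not which of them moved. The log2 ratio of ALDOC to ALDOA averaged -4.65 in methionine-restricted and -2.73 in control libraries, a difference of -1.92 (exact permutation p = 0.00794, adjusted p = 0.0185). It differed by -0.99 in histidine, -0.79 in phenylalanine, -0.71 in leucine and -0.47 in valine, by 0.40 in tryptophan (-4.17 in restricted and -4.57 in control libraries), and by 0.10 in isoleucine, where the exact permutation p was 0.286.

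Lactate dehydrogenase subunits differed most in valine, where LDHA fell more than LDHB. The log2 ratio of LDHB to LDHA lay between 1.69 and 2.10 in valine-restricted libraries and between 0.52 and 0.67 in controls, with means of 1.89 and 0.61. The difference of 1.28 is a 2.43-fold higher LDHB to LDHA ratio (exact permutation p = 0.00794, adjusted p = 0.0185). In tryptophan the means were 0.73 in restricted and 0.23 in control libraries, a difference of 0.50, and in isoleucine 0.72 and 0.57, a difference of 0.15 that also passed. The branched-chain controls are the same libraries in both tables, but their values differ between tables by a factor of each gene's own, alike in all 4 libraries apart from each library's scale, which for the 33 genes in control 1 lay between -0.14 and 0.05 (log2, isoleucine over valine table). The levels of a ratio are therefore comparable only within a table. Within the kinases, PDK3 relative to PDK1 was higher by 1.29 in methionine, 0.88 in phenylalanine, 0.40 in histidine and 0.32 in tryptophan. PDP1 relative to PDK1, the phosphatase against the kinase, was higher by 2.70 in methionine, 1.33 in phenylalanine, 1.06 in histidine, 0.89 in valine and 0.66 in tryptophan. ENO2 relative to ENO1 was lower by 0.26 in methionine (difference -0.26) and higher by 0.93 in tryptophan and 0.41 in phenylalanine.

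**Figure D5:**
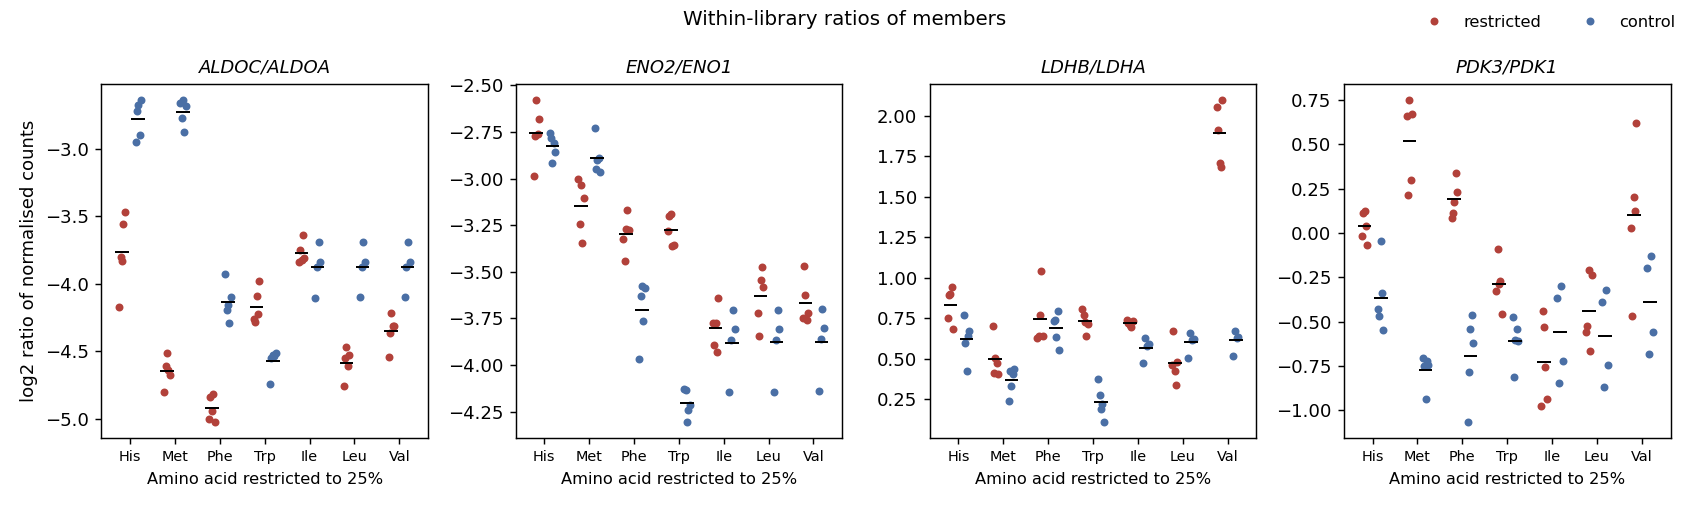
Log2 ratio of ALDOC to ALDOA, ENO2 to ENO1, LDHB to LDHA and PDK3 to PDK1 in each library, restricted left of control, with lines at the means. The valine-restricted libraries reach LDHB to LDHA log2 ratios of 1.69 to 2.10, above controls at 0.52 to 0.67, and the ALDOC to ALDOA ratio is lower in methionine-restricted than in control libraries by 1.92 and higher in tryptophan-restricted ones by 0.40.

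Control groups themselves held different levels of some of the genes. As normalised counts per 1000000 of each library's total, ALDOC averaged 195 ± 9.87 in methionine controls, 152 ± 37.0 in histidine controls, 73.0 ± 7.39 in branched-chain controls, 57.6 ± 6.97 in phenylalanine controls and 31.9 ± 5.82 in tryptophan controls (SD, n = 4 for branched-chain controls and n = 5 for the others), a spread of 6.1-fold. ALDOC in tryptophan-restricted libraries was at 32.9 ± 3.41 per 1000000, next to its control, and in methionine-restricted libraries at 22.2 ± 2.95. Control means spread 2.91-fold for PFKFB4, 2.5-fold for ENO2, 2.45-fold for SLC2A3 and 2.07-fold for PDK1, and by only 1.19-fold for HK1 and LDHB. The tables were normalised separately, and medium or batch of the control groups, all at day 3, cannot be told apart from these levels.

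Ribosomal protein mRNA also fell in several restrictions. Of 20 ribosomal protein genes, 20 fell in methionine (median log2 fold change -1.37), 11 in phenylalanine (-0.76), 9 in histidine (-0.20), 8 in tryptophan with 3 higher (-0.09), 5 in valine (-0.50), 4 in leucine (-0.45) and 0 in isoleucine (-0.20). Shares of all tested genes that fell were 25.4% in methionine, 6.09% in phenylalanine, 12.3% in histidine and 27.7% in tryptophan. They were 7.36% in valine, 4.33% in leucine and 0% in isoleucine. Methionine had the lowest median both for the ribosomal protein genes (-1.37) and for the 33 genes (-1.12). Leucine and valine, which share their control libraries, had near-equal ribosomal medians, and 2 and 21 of the 33 genes fell. The part of ribosomal protein mRNA in the changes of the 33 genes was not tested. Leaving out the libraries that stand apart, a choice made after seeing the data, gave 27 genes lower in methionine (25.4% of all tested genes in that fit), 23 in phenylalanine (14.2%), 22 in histidine (11.8%), 19 in valine (7.41%), 3 in leucine (4.92%) and 0 in isoleucine (0%). No such library was in the tryptophan table. In phenylalanine PFKL, PFKP, TPI1, PGK1, PGAM1, PDK3 and PGM1 then passed the test as lower and PFKFB2 and MPC2 as higher, while of all tested genes 14.2% were then lower and 12.2% higher, against 6.09% and 4.11% with every library. One library also decided part of the valine count, which was 15 without branched-chain control 5 (4.24% of all tested genes).

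Neighbouring pathways were read from lists that leave out the 33 genes, and their counts stand against the same shares of all tested genes. Those shares, lower and higher, were 27.7% and 23.6% in tryptophan, 25.4% and 27.8% in methionine, and 12.3% and 15.6% in histidine. They were 6.09% and 4.11% in phenylalanine, 7.36% and 5.13% in valine, 4.33% and 3.41% in leucine, and 0% in isoleucine. Of 18 tricarboxylic acid cycle genes, 16 fell in tryptophan, 12 in methionine with 2 higher, 9 in histidine with 1 higher, 5 in phenylalanine with 1 higher, 3 in valine with 2 higher, and none was called in leucine or isoleucine. IDH2, the mitochondrial isocitrate dehydrogenase, fell by 2.25 in methionine, SDHA of succinate dehydrogenase by 1.02 in tryptophan, and CS, citrate synthase, by 0.90 in valine. Of 9 pentose phosphate genes, 7 fell in tryptophan with 2 higher, 4 in histidine with 1 higher, 3 in methionine with 2 higher, 2 in phenylalanine, 2 in leucine, 1 in valine and 0 in isoleucine. The methionine shares of this list, 33.3% lower and 22.2% higher, were near those of all tested genes. The gene lower in every table but isoleucine was TKT, transketolase, which fell by 1.79 in methionine, 1.60 in valine, 1.30 in tryptophan, 1.00 in leucine, 0.97 in histidine and 0.97 in phenylalanine. Of 16 genes of glycogen and hexose entry, 7 fell in tryptophan and in valine, 6 in methionine and in phenylalanine, 5 in histidine, 3 in leucine and 0 in isoleucine, and 3 rose in histidine, 3 in methionine, 2 in tryptophan and 1 in valine. GBE1, the glycogen branching enzyme, fell by 1.43 in methionine, 1.34 in valine, 1.05 in histidine, 0.83 in tryptophan and 0.72 in phenylalanine.

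Other glycolysis and pyruvate genes, 50 of them with 30 to 34 tested per table, were called in both directions. In histidine 5 rose and 8 fell, in methionine 7 rose and 8 fell, in phenylalanine 2 rose and 5 fell, in tryptophan 8 rose and 7 fell, in leucine 1 rose and 3 fell, in valine 1 rose and 6 fell, and 0 were called in isoleucine. The shares were 26.7% higher and 23.3% lower in tryptophan (23.6% and 27.7% of all tested genes) and 21.9% and 25% in methionine (27.8% and 25.4%), near those of all genes in both tables. PCK2, the mitochondrial enzyme that makes phosphoenolpyruvate from oxaloacetate, was called in both directions: its log2 fold change was 1.22 in tryptophan and 0.56 in histidine, and -1.50 in methionine, -1.19 in valine, -0.92 in leucine and -0.91 in phenylalanine. Of the regulators of glycolytic transcription, 16 were tested, of which 6 rose and 2 fell in histidine, 10 and 4 in methionine, 4 and 0 in phenylalanine, 8 and 5 in tryptophan, 3 and 1 in leucine, 3 and 2 in valine, and 0 and 0 in isoleucine. In methionine 62.5% of them rose and 25% fell, against 27.8% and 25.4% of all tested genes. In histidine 37.5% rose and 12.5% fell, against 15.6% and 12.3%, so the lower shares were near background in both. MYC was lower in tryptophan (-1.33), methionine (-0.94) and histidine (-0.64) and higher in leucine (0.67). The mRNA of HIF1A fell by 0.43 in tryptophan and 0.21 in methionine. MYC outside tryptophan and HIF1A were named after their values were seen. TXNIP, which curbs glucose uptake, had the largest rise of that list in 5 restrictions. Its log2 fold change was 4.93 in valine, 4.81 in phenylalanine, 4.73 in methionine, 4.45 in histidine and 4.18 in leucine. In tryptophan its relative ARRDC4 had the largest rise, with 1.34 against 0.99 for TXNIP.

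Some of the values rest on sequence shared with other loci. In GENCODE 29, 13 of the 33 genes have pseudogenes named after them, with 62 for GAPDH, 13 for PGAM1, 6 for LDHA, 5 for PKM, 4 for TPI1 and 4 for ENO1, and reads from mRNA of such copies can be shared among them. Exons of 18 members are overlapped by a gene on the opposite strand, among them SLC2A1, SLC16A1, SLC16A3 and ENO1. The libraries are strand-specific per the labels, but no source used here gives the strand setting of the quantification, so the values of these genes are uncertain to that extent. Since 1 was added to each value before taking logs, changes of low genes such as PFKM are understated.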

How the data were processed

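Bulk RNA of Jurkat cells was measured in 59 libraries. For each of the 7 amino acids the authors deposited a table of normalised counts, a signal scaled for library size. Library size is not the only scaling, since the shared branched-chain controls differ between tables by a factor of each gene's own. Per the submitters' processing notes, kallisto 0.50.1, DESeq2 1.44.0, FastQC 0.11.9 and GRCh38 were used. Per the labels' protocols, 1 µg of total RNA entered strand-specific libraries. No source used here gives the annotation release or settings. Each table was scaled on its own, so tests were made within tables, and changes of low genes on the log scale are understated. Between 43.3% and 81.3% of low values, up to a multiple of 20, were whole multiples within 0.1, so reads were not recovered and no count model was fitted.

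A pseudocount of 1 was added before log2. Limma 3.58.1 under R 4.3.3 (eBayes with trend, two-sided) tested genes whose mean was 10 or more, with Benjamini-Hochberg adjustment over the table and calls below 0.05. Each restricted group was set against the control columns of its table, as the labels group them. Responses to histidine, methionine, phenylalanine and tryptophan were compared in 1 fit with interaction terms. Ratios of gene pairs were compared by exact permutation of libraries. Scripts were tested on simulated data with known changes. Promoter and annotation tables were read with pandas 2.3.3 and figures drawn with matplotlib 3.10.9.

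Library values are printed for the 2 called members with the largest rise and fall in each comparison (higher group at least 100) and for 8 further members where a statement turns on them. Those of PFKL, PFKM, ENO2 and MPC1, and of ALDOC in valine and tryptophan, were added after their values were seen. Other lists are represented by their 2 largest called changes, and PCK2, GBE1 and TKT are then followed across tables. Ratios and contrasts under other scalings were added after seeing the data. The members and lists were chosen with earlier results of these data known.

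Alternatives were pseudocounts of 0.25 and 5, no filter, a mean of at least 100, trimmed mean of M values factors, equal totals, the replicate number as a block, each library left out, and libraries with ribosomal protein mRNA over 0.5 (log2) above their group's median left out. Numbers pair samples only if every pair's deviations correlate over 0.1, and in each comparison at most 1 of 4 or 5 pairs did.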

Additional observations from a re-analysis of the deposited data

Results flagged for a closer look

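In 44 of 396 groups of 4 or 5 libraries, 1 library's normalised count of a member lay far from the others, by a gap that takes most of the group's range. Chance flags about 1 in 20 groups. Of the 44 values, 9 were in phenylalanine restricted 2, 5 in methionine control 1, and 4 each in leucine restricted 2, phenylalanine control 1 and branched-chain control 1. Of these, branched-chain control 1 and both phenylalanine libraries were also high in mRNA of ribosomal proteins, whose part in these values was not tested. All values that follow are normalised counts of 1 library, and those of branched-chain controls are as scaled in the leucine table.

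Histidine restricted 2 was the lowest of its group for PFKL at 2418. Histidine restricted 3 was the highest of its group for MPC1 at 629.3 and the lowest of its group for PDP1 at 378.5. Histidine control 1 was the lowest of its group for GPI at 2759, GAPDH at 49800 and PGAM1 at 10020. Methionine restricted 1 was the lowest of its group for HK2 at 1050. Methionine restricted 3 was the lowest of its group for PDHB at 1794. Methionine control 1 was the highest of its group for PFKFB2 at 748.3 and the lowest of its group for HK1 at 1913, GPI at 3518, ALDOA at 18900 and SLC2A3 at 894.3. Methionine control 3 was the highest of its group for PDHA1 at 1149.

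Phenylalanine restricted 2 was the highest of its group for ALDOA at 12160, ALDOC at 423.6, TPI1 at 7898, GAPDH at 40220, PGK1 at 9901, PGAM1 at 11030, ENO1 at 37020 and MPC2 at 2126 and the lowest of its group for SLC16A1 at 994. Phenylalanine control 4 was the highest of its group for PGAM1 at 13190. Phenylalanine control 1 was the highest of its group for PDK2 at 634.8 and MPC2 at 1659 and the lowest of its group for SLC2A3 at 751.2 and PFKFB2 at 446.

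Tryptophan restricted 2 was the lowest of its group for GAPDH at 29110. Tryptophan restricted 3 was the highest of its group for ENO2 at 3449 and MPC2 at 1515. Isoleucine restricted 1 was the highest of its group for PFKFB4 at 364.1. Leucine restricted 2 was the highest of its group for TPI1 at 8618, PKM at 26100, PFKFB4 at 423.9 and PDHA1 at 1081. Leucine restricted 1 was the lowest of its group for LDHB at 14690. Valine restricted 3 was the lowest of its group for PGAM1 at 9161. Valine restricted 2 was the highest of its group for ENO2 at 2677. Branched-chain control 1 was the highest of its group for TPI1 at 11430, PGK1 at 11620, PDK2 at 783.3 and MPC1 at 998. Branched-chain control 4 was the lowest of its group for PFKFB3 at 2348.

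The response of 30 members differed among histidine, methionine, phenylalanine and tryptophan in limma's interaction F test, where 64.9% of all tested genes differed. Among the transporters the adjusted p-values were 0.0112 for SLC2A1, 3.58e-06 for SLC2A3, 0.00464 for SLC16A1 and 0.000557 for SLC16A3. Among the hexose phosphate enzymes the adjusted p-values were 5.63e-05 for HK2, 7.07e-07 for GPI, 8.21e-05 for PGM1, 1.08e-11 for PFKL and 1.23e-06 for PFKP. In the PFKFB family the adjusted p-values were 0.0027 for PFKFB2, 0.00117 for PFKFB3 and 8.5e-09 for PFKFB4. Between aldolase and pyruvate kinase the adjusted p-values were 0.000172 for ALDOA, 4.87e-13 for ALDOC, 0.0147 for TPI1, 2.74e-08 for GAPDH, 8.24e-08 for PGK1, 0.00371 for PGAM1, 2.54e-10 for ENO1, 3.41e-17 for ENO2 and 8.36e-07 for PKM. For lactate dehydrogenase the adjusted p-values were 0.00645 for LDHA and 0.000523 for LDHB. Among the genes of mitochondrial pyruvate the adjusted p-values were 0.00618 for MPC1, 5.84e-06 for MPC2, 0.00776 for PDHA1, 4.81e-08 for PDHB, 7.87e-14 for PDK1, 3.62e-06 for PDK2 and 0.000747 for PDK3.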

How the results depend on the processing

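No called member changed direction under any alternative tried (2 pseudocounts, 2 filters, 2 scalings, the replicate block, each library left out and the libraries that stand apart left out). With equal library totals the median of all genes became 0.27 in tryptophan, 0.15 in methionine, 0.15 in phenylalanine and 0.13 in valine (log2). Under it 13 members were lower in tryptophan, 6 were higher in methionine, and 1 was higher in leucine and in valine. In tryptophan the calls lost included HK1, HK2, ENO2, SLC2A1, PFKFB3 and PDK1, while ENO1 stayed at -0.95 and LDHA at -0.93. A filter of at least 100 gave 4 members lower in leucine. Without the libraries high in ribosomal protein mRNA, or all that stand apart, 2 members rose in phenylalanine and 1 in valine.

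With 1 library left out at a time, members called higher numbered 0 to 1 in histidine (MPC2 without control 5), 0 to 1 in leucine (PFKFB3 without restricted 1), 0 to 1 in valine (MPC1 without branched-chain control 1), 3 to 4 in methionine and 3 to 4 in tryptophan. Members called lower numbered 22 to 26 in histidine, 26 to 27 in methionine, 15 to 20 in phenylalanine, 21 to 23 in tryptophan, 2 to 3 in leucine and 15 to 21 in valine.

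Of 113 uncalled values, 17 changed sign with equal totals, 22 without the libraries that stand apart, 33 with some 1 library left out, 5 with the block and 2 with trimmed mean factors. Among the uncalled values printed above these were ENO2 in phenylalanine (0.017 with trimmed mean factors, 0.12 with equal totals, -0.057 to 0.028 with 1 library left out), ALDOC in tryptophan (0.057 with equal totals), PFKFB4 in tryptophan (0.15 with equal totals, -0.30 to 0.032 with 1 library left out) and SLC16A3 in tryptophan (-0.028 to 0.25 with 1 library left out). The cause was not tested.

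The replicate number as a block gave 27 members lower in methionine, 23 in histidine, 21 in tryptophan, 21 in valine, 14 in phenylalanine, 2 in leucine and 0 in isoleucine. The labels do not say that the numbers pair samples. With the block SLC16A3 (adjusted p = 0.0572, limma) and ENO1 (0.118) lost their phenylalanine calls. ENO1 also lost it without a filter (0.074), with trimmed mean factors (0.0658) and with equal totals (0.0706). Read depth is unknown, so counting error could not be set against the spread between libraries.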
